A study of Mus musculus with 24 samples.

Results

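The liver X receptor genes Nr1h2 and Nr1h3 and 5 genes known as their targets were followed across 8 groups of mouse CD8+ T cells kept with or without a bile acid. Members were the rows of the deposited count table that carry these gene symbols, and all 7 were found among its 24537 genes, each on 1 row. All 7 passed the filter on low counts, which left 13044 genes for testing.

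Bile acids were added to CD8+ T cells after in vitro activation, for 24 h per the series' design text and overnight per the labels' treatment protocol. The Control group has no bile acid named in its labels. Of the 7 acids, each with 3 libraries like Control, 5 were unconjugated and given at 50 µM. These were lithocholic acid (LCA), its iso form (IsoLCA), its isoallo form (IsoAlloLCA), its dehydro form (DehydroLCA) and ursodeoxycholic acid (UDCA). The other 2 were conjugated to taurine and given at 100 µM, namely taurocholic acid (TCA) and taurochenodeoxycholic acid (TCDCA). The labels give no strain, age, animal or activating agent, and do not say whether the 3 libraries of a group came from separate cultures, so p-values may measure technical spread only.

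Liver X receptors are nuclear receptors that bind oxysterols and other sterol intermediates and act on DNA as heterodimers with retinoid X receptors. Without a ligand they can hold corepressors at their target genes, and with one they switch on genes that export cholesterol, curb its uptake and remodel membrane lipids. In T cells, this pathway is known to link the sterol supply of an activated cell to its division, with the sulfotransferase SULT2B1 removing oxysterol ligands. Nr1h2 encodes the widely expressed liver X receptor beta and Nr1h3 liver X receptor alpha, which is best known from liver, fat and macrophages. Abca1 and Abcg1 encode transporters that pass cholesterol to lipoproteins outside the cell. Mylip encodes a ubiquitin ligase (IDOL) that marks lipoprotein receptors for destruction. Srebf1 encodes the lipogenic transcription factor SREBP-1, and Lpcat3 an acyltransferase that puts polyunsaturated chains into phospholipids.

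The libraries held 25998051 to 41024340.5 counts in genes. The share of each library lying in exons was 78.3% ± 2.78 (SD, n = 3) in IsoAlloLCA and 82.6% ± 1.37 (SD, n = 3) in Control. IsoAlloLCA replicate 1, at 81.2%, lay within the control range of 81.1% to 83.8%, and replicates 2 and 3 were at 75.6% and 78.1%. The other acids had means of 80.7% (LCA) to 83.3% (IsoLCA). The part of this share in the IsoAlloLCA values was not tested. All 7 CD8 T cell markers examined were present, with a summed level of 2819 to 3400 CPM per library. Of 15 myeloid markers, 12 had too few counts to be tested, and C1qa, Marco and Siglech had 0 counts in all libraries. The summed CPM of 3 CD4 T cell markers was 48.2 to 52.4 in Control, 60.3 to 65.8 in LCA and 57.6 to 60.8 in DehydroLCA, of which Cd4 itself gave at most 1.16 in any library. That of 3 NK cell markers, mostly Eomes, was 26.3 to 27.6 in Control, 14.9 to 17.3 in IsoAlloLCA and 31.2 to 36.5 in UDCA. That of 5 stromal and erythroid markers, mostly Pecam1, was 45.2 to 51.6 in Control, 30.6 to 36.7 in LCA and 36.0 to 37.7 in UDCA, with Col3a1 at 0 counts in all libraries. Of 5 B cell markers, mostly Cd79b, the sum was 5.88 to 6.38 in Control and 4.19 to 4.48 in LCA. The part of these markers in the results was not tested. Levels are CPM, counts per 1000000 counts scaled by TMM, and only levels divided by transcript length (CPM per kb) are compared between genes. Changes are edgeR log2 fold changes ± SE of 3 libraries against 3, and "rose" and "fell" are used where the adjusted p was under 0.05. Libraries of an acid lay all above or all below Control in 47.7% of tested genes with LCA, 24.6% with IsoLCA and 58.6% with IsoAlloLCA. This share was 26.5% with DehydroLCA, 34.8% with UDCA, 13.8% with TCA and 32.8% with TCDCA. In bulk RNA, fewer cells that express a gene and less RNA per cell cannot be told apart.

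Promoter windows of 300 bases, 250 before and 50 from each start site, were available for 6 of the 7 members from RefSeq (GRCm38.p6, the same assembly as mm10). There were 9 such windows, as Srebf1 had 3 start sites and Nr1h3 had 2. Abcg1 had none. They were searched on both strands for the direct repeat DR4, which is 2 copies of AGGTCA in the same direction with any 4 bases between them and is known to be bound by liver X receptors. Up to 3 mismatches were allowed in its 12 fixed letters. Matches were found in 2 windows, the Abca1 window and the most downstream Srebf1 window, and 21.9% of 32851 promoters of the same length held one. The 2 of 9 windows stand close to that share. Both windows are shown because their matches are nearly the same sequence, and the capitals mark the match, which lies on the opposite strand.
Abca1: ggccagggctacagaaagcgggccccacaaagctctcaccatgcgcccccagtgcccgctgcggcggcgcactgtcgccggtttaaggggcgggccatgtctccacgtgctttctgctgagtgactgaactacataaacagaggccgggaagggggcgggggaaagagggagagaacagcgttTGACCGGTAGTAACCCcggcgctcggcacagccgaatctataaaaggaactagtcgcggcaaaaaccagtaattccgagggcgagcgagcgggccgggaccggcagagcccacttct
Srebf1: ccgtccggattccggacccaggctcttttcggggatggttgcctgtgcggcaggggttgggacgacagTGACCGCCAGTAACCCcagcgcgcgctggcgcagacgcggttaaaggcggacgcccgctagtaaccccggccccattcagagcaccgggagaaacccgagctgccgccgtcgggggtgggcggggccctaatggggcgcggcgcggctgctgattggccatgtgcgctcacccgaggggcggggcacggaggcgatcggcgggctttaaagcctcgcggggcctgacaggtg
The Abca1 window is chr4:53159846-53160145 on the minus strand, and the Srebf1 window is chr11:60210422-60210721 on the minus strand. Read on the other strand, the Abca1 match is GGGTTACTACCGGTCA and the Srebf1 match is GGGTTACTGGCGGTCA. They are identical at 14 of 16 letters. The Abca1 match begins 67 bases and the Srebf1 match 182 bases before the start site. The start site of this Srebf1 window lies 10156 bases downstream of the start of the counted Srebf1 transcript, and GENCODE transcript 207, which starts near it, shares 16 of its 18 exons with a transcript from the upstream start. The Srebf1 level therefore does not tell the starts apart.

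Exact matches to 3 other motifs were sought on both strands. The E-box CACGTG occurred in the Abca1 window only of the 9, and in 7.15% of all promoters. The sterol regulatory element TCACNCCAC occurred in none of the 9 and in 1.24% of all promoters. An Sp1 site, GGGCGG, was present in windows of Abca1, Mylip, Lpcat3 and Srebf1 and in 35.7% of all promoters. These matches describe letters in a short window and are not binding sites shown by these data.

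Of the receptors, Nr1h2 (chromosome 7, 44549616 to 44553965, minus strand) was by far the more abundant. In control cells Nr1h2 stood at 28.9 ± 1.43 CPM per kb (SD, n = 3) and Nr1h3 at 0.262 ± 0.0308 CPM per kb (SD, n = 3), a ratio of 111 between the means. The ratio ran from 74.6 in LCA to 125 in TCA. Nr1h3 (chromosome 2, 91184061 to 91195035, minus strand) rested on 10.5 to 32.5 counts per library.

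The level of Nr1h2 varied little. Control libraries 1, 2 and 3 were at 61.5, 56.5 and 56.5 CPM, and IsoAlloLCA libraries at 64.6, 71.4 and 64.3 CPM, which were the highest of the 8 groups and overlapped no other group. Libraries of IsoAlloLCA were likewise clear of Control in 58.6%, of LCA in 61.7% and of IsoLCA in 58.8% of tested genes. The share clear of all other groups at once was not counted. Nr1h2 rose with IsoAlloLCA by 0.20 ± 0.05 (edgeR adjusted p = 0.000599). With the other 6 acids its values lay between -0.10 ± 0.05 (IsoLCA) and 0.05 ± 0.05 (TCA) and did not pass the test. The interval for LCA was -0.13 to 0.06.

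Levels of Nr1h3 in control libraries were 0.526, 0.558 and 0.442 CPM. LCA libraries, at 0.614, 0.925 and 0.666 CPM, and IsoAlloLCA libraries, at 0.695, 0.926 and 0.595 CPM, all lay above them. Neither difference passed the test, at 0.53 ± 0.25 (edgeR adjusted p = 0.0977) for LCA and 0.56 ± 0.25 (0.0601) for IsoAlloLCA. Without IsoAlloLCA replicate 3 the second was 0.68 and passed (adjusted p = 0.0374, range over its alternatives 0.0374 to 0.334). The intervals, 0.02 to 1.03 and 0.04 to 1.08, leave room for a doubling at these counts. The other 5 acids gave values of -0.14 to 0.33, with libraries overlapping those of control. Of all tested genes, 47.7% with LCA and 58.6% with IsoAlloLCA had libraries all above or all below control.

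**Figure D1:**
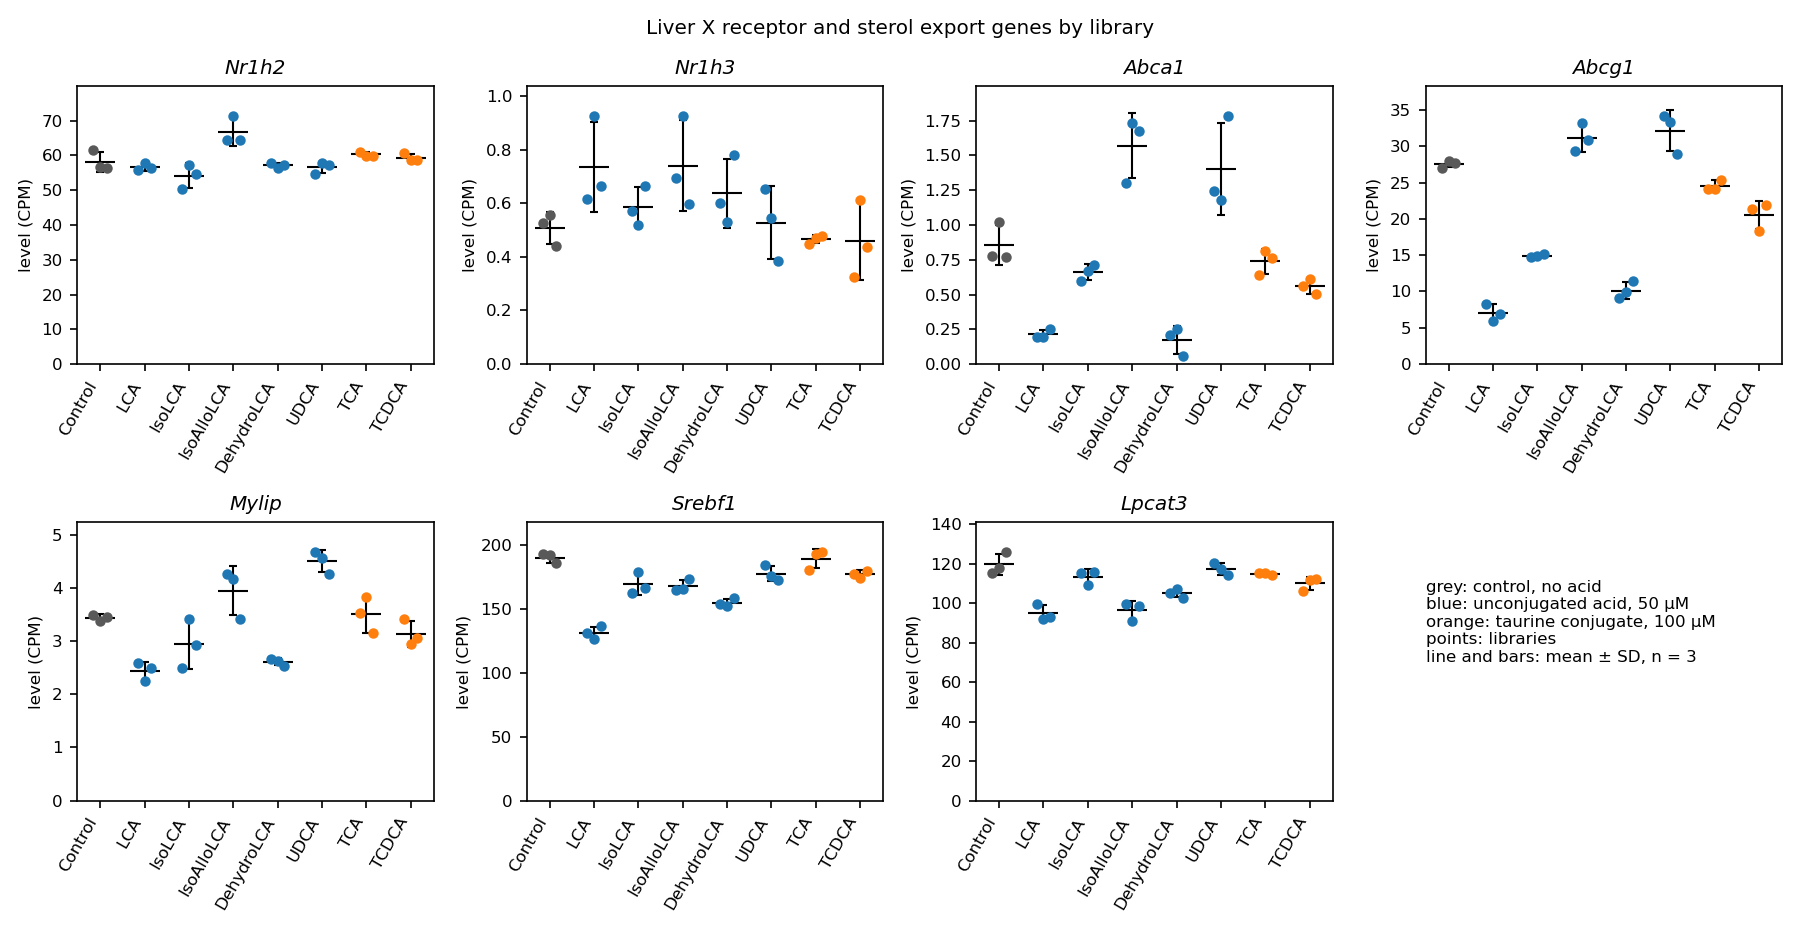
Level in CPM (vertical axes, linear, from 0) of the 7 genes in each of the 24 libraries by group (horizontal axes). Points are libraries, and lines with bars are mean ± SD (n = 3). Abcg1 falls from 27.6 CPM in Control to 7.04 CPM in LCA and stands at 32.2 CPM in UDCA, while Nr1h2 stays between 54.2 and 66.8 CPM on average.

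The sterol exporters were the members that varied most among the groups. Abcg1 (NM_009593, chromosome 17, 31057694 to 31117981, plus strand) spanned 4.57-fold between the highest and lowest group means, and Abca1 (NM_013454, chromosome 4, 53030789 to 53159895, minus strand) 9.09-fold. The span was 1.85-fold for Mylip, 1.61-fold for Nr1h3, 1.45-fold for Srebf1, 1.26-fold for Lpcat3 and 1.23-fold for Nr1h2. These spans describe group means and were not tested. That of Abca1 has the DehydroLCA mean as its lower end, which rests on 2 to 8 counts per library.

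Abcg1 was at 27.0, 27.9 and 27.8 CPM in control libraries 1, 2 and 3. It was at 8.28, 5.97 and 6.88 CPM with LCA, 9.07, 9.88 and 11.4 CPM with DehydroLCA, and 14.8, 14.8 and 15.1 CPM with IsoLCA. All 9 of these libraries lay below all control libraries, and the 3 acids did not overlap each other. Of all tested genes, 39.1% did not overlap between DehydroLCA and LCA, 42.7% between IsoLCA and LCA and 19.6% between DehydroLCA and IsoLCA. TCDCA libraries, at 21.4, 18.3 and 21.9 CPM, and TCA libraries, at 24.2, 24.1 and 25.4 CPM, also lay below control. IsoAlloLCA libraries, at 29.4, 33.2 and 30.9 CPM, and UDCA libraries, at 34.2, 33.3 and 29.0 CPM, lay above it and overlapped each other.

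In order of its mean level, Abcg1 thus ran from UDCA (32.2 ± 2.80 CPM, SD, n = 3) through IsoAlloLCA (31.2 ± 1.96), Control (27.6 ± 0.469), TCA (24.6 ± 0.725), TCDCA (20.5 ± 1.95), IsoLCA (14.9 ± 0.210) and DehydroLCA (10.1 ± 1.2) to LCA (7.04 ± 1.17). UDCA and IsoAlloLCA were the only neighbours in this order whose libraries overlapped. Among tested genes, 58.6% did not overlap between IsoAlloLCA and Control, 13.8% between TCA and Control and 23.6% between TCDCA and TCA. The share between TCDCA and IsoLCA was not counted. Abcg1 fell with LCA (-1.96 ± 0.09, edgeR adjusted p = 4.26e-14), DehydroLCA (-1.44 ± 0.09, edgeR adjusted p = 5.63e-11), IsoLCA (-0.89 ± 0.08, edgeR adjusted p = 3.13e-08) and TCDCA (-0.43 ± 0.08, edgeR adjusted p = 0.000845). It did not pass with TCA (-0.17 ± 0.08, interval -0.33 to 0.00, adjusted p = 0.585) or IsoAlloLCA (0.18 ± 0.08, interval 0.01 to 0.34, adjusted p = 0.0588). With UDCA it rose by 0.22 ± 0.08, with an adjusted p of 0.0484 that lay close to the threshold.

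Abca1 was scarce, with 2 to 59.5 counts per library. Per length it stood at 0.0839 CPM per kb in control, where Abcg1 stood at 4.75, a ratio of 56.6. Control libraries held 0.774, 1.02 and 0.773 CPM, LCA libraries 0.197, 0.196 and 0.250 CPM, and DehydroLCA libraries 0.210, 0.250 and 0.0577 CPM. The LCA and DehydroLCA libraries were the lowest of all groups and overlapped each other. IsoAlloLCA libraries, at 1.30, 1.74 and 1.67 CPM, and UDCA libraries, at 1.24, 1.18 and 1.78 CPM, were the highest and overlapped each other too.

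Between these ends lay TCA (0.642, 0.816 and 0.762 CPM), IsoLCA (0.600, 0.669 and 0.714 CPM) and TCDCA (0.564, 0.613 and 0.50 CPM). Control overlapped TCA, TCA overlapped IsoLCA and IsoLCA overlapped TCDCA in the order of the means. Abca1 fell with DehydroLCA by -2.30 ± 0.32 (edgeR adjusted p = 3.16e-05), to 20.3% of control, and with LCA by -1.98 ± 0.29 (edgeR adjusted p = 9.24e-06). It rose with IsoAlloLCA by 0.87 ± 0.20 (edgeR adjusted p = 0.00072) and with UDCA by 0.70 ± 0.21 (edgeR adjusted p = 0.0188). The values with TCDCA (-0.61 ± 0.25, adjusted p = 0.107), IsoLCA (-0.36 ± 0.23, adjusted p = 0.396) and TCA (-0.20 ± 0.23, adjusted p = 0.855) did not pass.

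Since Abca1 is also a macrophage gene, its level is set beside the myeloid markers. Their summed level was 4.12 to 5.08 CPM in control, 7.68 to 10.7 CPM in IsoAlloLCA and 3.71 to 3.99 CPM in UDCA libraries. It came mostly from Cd68, at up to 6.83 CPM, and Xcr1, at up to 3.16 CPM. The highest counts of Lyz2, Csf1r and Adgre1 were 8.5, 4 and 3. Their part in the Abca1 values was not tested.

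Mylip (chromosome 13, 45389742 to 45411940, plus strand), which acts on lipoprotein uptake rather than export, followed a similar order over a narrower range. Control libraries were at 3.50, 3.38 and 3.45 CPM, LCA libraries at 2.58, 2.24 and 2.50 CPM, and DehydroLCA libraries at 2.67, 2.63 and 2.54 CPM. UDCA libraries, at 4.67, 4.57 and 4.27 CPM, had the highest mean. The lowest of them, at 4.269 CPM, was nearly level with the highest IsoAlloLCA library, at 4.262 CPM. IsoAlloLCA libraries, at 4.26, 4.17 and 3.42 CPM, overlapped control, as did IsoLCA (2.49, 3.41 and 2.93 CPM), TCA (3.53, 3.83 and 3.15 CPM) and TCDCA (3.41, 2.94 and 3.06 CPM).

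Mylip fell with LCA by -0.49 ± 0.12 (edgeR adjusted p = 0.00186) and with DehydroLCA by -0.40 ± 0.12 (edgeR adjusted p = 0.0459), and rose with UDCA by 0.39 ± 0.11 (edgeR adjusted p = 0.0142). The values with IsoLCA (-0.23 ± 0.12), IsoAlloLCA (0.21 ± 0.11), TCA (0.02 ± 0.11) and TCDCA (-0.13 ± 0.12) did not pass.

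Srebf1 (chromosome 11, 60199084 to 60220627, minus strand), the lipogenic target, was not raised by any acid. Control libraries were at 193, 192 and 186 CPM. LCA libraries, at 131, 127 and 136 CPM, were the lowest, followed by DehydroLCA at 154, 152 and 158 CPM, and neither overlapped another group. Libraries did not overlap in 39.1% of tested genes between DehydroLCA and LCA and in 19.6% between DehydroLCA and IsoLCA. IsoLCA libraries were at 162, 179 and 167 CPM and IsoAlloLCA libraries at 165, 166 and 174 CPM, all below control. Srebf1 fell with LCA by -0.53 ± 0.04 (edgeR adjusted p = 1.92e-10), DehydroLCA by -0.30 ± 0.04 (1.82e-05), IsoAlloLCA by -0.18 ± 0.04 (0.000412) and IsoLCA by -0.17 ± 0.04 (0.00549). UDCA, at 184, 176 and 173 CPM, and TCDCA, at 178, 174 and 180 CPM, gave values of -0.10 ± 0.04 each that did not pass. TCA, at 181, 193 and 194 CPM, overlapped control.

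Lpcat3 (chromosome 6, 124663104 to 124704716, plus strand), the phospholipid acyltransferase, was at 115, 118 and 126 CPM in control. LCA libraries, at 99.5, 92.2 and 92.9 CPM, and IsoAlloLCA libraries, at 99.7, 90.8 and 98.7 CPM, were the lowest and overlapped each other. Lpcat3 fell with LCA by -0.33 ± 0.04 (edgeR adjusted p = 7.83e-07), IsoAlloLCA by -0.31 ± 0.04 (5.78e-07) and DehydroLCA by -0.19 ± 0.04 (0.00595). The other 4 acids, with group means of 110 to 117 CPM, gave values of -0.12 to -0.03 that did not pass.

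Exons of Lpcat3 overlap exons of Emg1 on the opposite strand by up to 334 bases, and exons of Srebf1 overlap those of Rai1 by up to 109 bases in the mm10 annotation (GENCODE M21). On the same strand, Srebf1 exons overlap Mir6922 by 66 bases, and Nr1h3 exons overlap Gm13783, which is not in the count table, by 34 bases. The strand setting used in counting is not given, so reads where genes on opposite strands overlap cannot be told apart, and no strand setting separates those on the same strand.

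**Figure D2:**
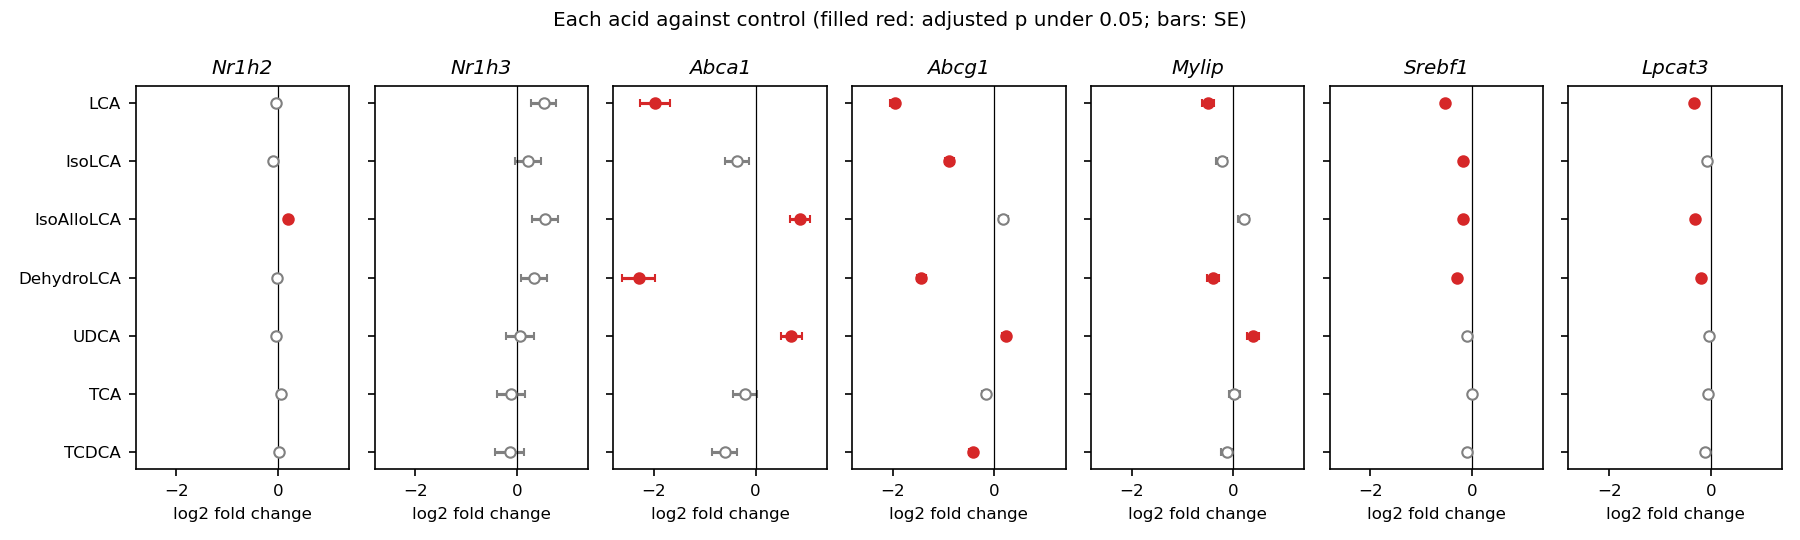
Log2 fold change (horizontal axes) of each of the 7 genes with each acid against control (vertical axis), as points with SE bars. Filled red points passed the test, from -2.30 for Abca1 with DehydroLCA to 0.87 for Abca1 with IsoAlloLCA.

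By acid, the members that changed all fell with LCA, DehydroLCA, IsoLCA and TCDCA, all rose with UDCA, and went both ways with IsoAlloLCA. With LCA, 5 of 7 fell, and with it 36.5% of all tested genes changed and 18.8% fell. With DehydroLCA the same number fell, 5 of 7, where 5.83% of tested genes changed and 3.41% fell. The 5 genes were Abca1, Abcg1, Mylip, Srebf1 and Lpcat3 in both. The call of Mylip with DehydroLCA was lost without any of the 6 libraries (-0.42 to -0.38), in DESeq2 (-0.41) and with no low-count filter (-0.40), with adjusted p-values over its alternatives of 0.0138 to 0.145. IsoLCA lowered 2 of 7, Abcg1 and Srebf1, where 9.84% of tested genes changed and 6.12% fell. Without IsoLCA replicate 1 only Abcg1 remained called (Srebf1 -0.14, adjusted p = 0.0515, range 0.000583 to 0.0515).

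IsoAlloLCA raised Nr1h2 and Abca1 and lowered Srebf1 and Lpcat3, so 4 of 7 changed where 58.4% of tested genes did, a share close to that background. Without IsoAlloLCA replicate 3, Nr1h3 and Mylip also passed, which made 6, and without replicate 1 Abcg1 passed (0.22), as it did with only the 6 libraries compared (0.18). UDCA raised 3 of 7, Abca1, Abcg1 and Mylip, where 19.9% of tested genes changed and 9.18% rose. This count fell to 1 without Control replicate 1, 2 or 3 or without UDCA replicate 1 or 2, and to 2 without UDCA replicate 3. It was also 2 in DESeq2 and with only the 6 libraries compared, where Abca1 did not pass (adjusted p = 0.0611 and 0.0503), and with DESeq2 size factors in edgeR, where Abcg1 did not (0.0535). The 3 values stayed above 0 in these fits, at 0.49 to 0.84 for Abca1, 0.18 to 0.29 for Abcg1 and 0.36 to 0.42 for Mylip over all alternatives.

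TCDCA lowered 1 of 7, Abcg1, where 13.1% of tested genes changed and 8.04% fell. Without Control replicate 1 Lpcat3 passed as well (-0.15, adjusted p = 0.0291, range 0.0291 to 0.255), which made 2. With TCA 0 of 7 changed in edgeR, 0 in DESeq2 and 0 at an unadjusted p under 0.05, where 0.437% of tested genes changed. The median log2 fold change of the 7 genes was -0.49 with LCA, -0.30 with DehydroLCA, -0.17 with IsoLCA, -0.13 with TCDCA, -0.06 with TCA, 0.07 with UDCA and 0.20 with IsoAlloLCA. Over all tested genes the medians lay between 0.00 and 0.03. The 7 comparisons share the control libraries and are not independent of each other.

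Acids given at the same dose were also compared directly, in 7 pairs, with p-values adjusted over the 13044 genes of each pair. IsoLCA is the epimer of LCA at its ring hydroxyl. Abcg1 was higher with IsoLCA than with LCA by 1.07 ± 0.10 (edgeR adjusted p = 2.14e-08), Abca1 by 1.62 ± 0.30 (0.000295), Srebf1 by 0.37 ± 0.04 (2.73e-07) and Lpcat3 by 0.26 ± 0.04 (5.38e-05). These 4 of 7 were higher where 30.3% of tested genes differed and 15.8% were higher. Mylip did not pass (0.26 ± 0.12, interval 0.02 to 0.51) and passed without IsoLCA replicate 1 (0.37, adjusted p = 0.0378, range 0.0378 to 0.387). Nr1h2 (interval -0.16 to 0.03) and Nr1h3 (interval -0.79 to 0.18) did not pass either.

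DehydroLCA carries a ketone in place of that hydroxyl. Against LCA, 3 of 7 were higher, where 17.8% of tested genes differed and 10.3% were higher: Abcg1 by 0.52 ± 0.10 (edgeR adjusted p = 0.00101), Srebf1 by 0.24 ± 0.04 (0.000194) and Lpcat3 by 0.15 ± 0.04 (0.0159). The Lpcat3 call was lost without LCA replicate 2 or 3 and without DehydroLCA replicate 1 or 2 (0.12 to 0.14). Abca1 gave -0.32 ± 0.42, with an interval of -1.18 to 0.54 that is wide because both groups held 2 to 9 counts per library. Against IsoLCA, DehydroLCA had 2 of 7 lower, Abcg1 by -0.56 ± 0.09 (edgeR adjusted p = 0.00123) and Abca1 by -1.94 ± 0.33 (0.0013), where 1.67% of tested genes differed and 0.475% were lower. Srebf1 (-0.13 ± 0.04, interval -0.21 to -0.05) and Lpcat3 (-0.11 ± 0.04, interval -0.20 to -0.03) did not pass. Srebf1 passed in DESeq2 (adjusted p = 0.0489) and with p-values adjusted over all 14 comparisons together (0.016), in a range over its alternatives of 0.016 to 0.346.

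IsoAlloLCA differs from IsoLCA in the geometry of the junction between its first rings. Abcg1 was higher with IsoAlloLCA by 1.06 ± 0.08 (edgeR adjusted p = 8.68e-11), Abca1 by 1.24 ± 0.21 (1.83e-05), Mylip by 0.44 ± 0.11 (0.00188) and Nr1h2 by 0.30 ± 0.05 (3.62e-06). Lpcat3 was lower by -0.23 ± 0.04 (edgeR adjusted p = 2.92e-05), so 5 of 7 differed where 59.8% of tested genes did. Srebf1 was at nearly the same level (-0.01 ± 0.04, interval -0.09 to 0.07). Against LCA, from which it differs at both positions, IsoAlloLCA had 5 of 7 higher, where 61.4% of tested genes differed and 32.3% were higher. Abca1 differed by 2.85 ± 0.26 (edgeR adjusted p = 8.20e-10), Abcg1 by 2.14 ± 0.09 (9.87e-16), Mylip by 0.70 ± 0.12 (1.08e-05), Srebf1 by 0.36 ± 0.04 and Nr1h2 by 0.24 ± 0.05. Lpcat3 did not pass (0.02 ± 0.04, interval -0.06 to 0.11).

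UDCA carries a further hydroxyl that LCA lacks. With UDCA, 5 of 7 were higher than with LCA, where 26.9% of tested genes differed and 14.8% were higher. Abca1 differed by 2.68 ± 0.27 (edgeR adjusted p = 4.81e-08), Abcg1 by 2.19 ± 0.09 (8.69e-15), Mylip by 0.88 ± 0.11 (2.56e-06), Srebf1 by 0.43 ± 0.04 (1.07e-08) and Lpcat3 by 0.30 ± 0.04 (5.56e-06). Nr1h2 (interval -0.10 to 0.09) and Nr1h3 (interval -0.97 to 0.05) did not pass.

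Of the taurine conjugates, TCDCA lacks a hydroxyl that TCA has. Between them 0 of 7 differed in edgeR and 0 in DESeq2, where 3.61% of tested genes differed in edgeR, and 2 of 7 had an unadjusted p under 0.05. These were Abcg1 (-0.26 ± 0.08, interval -0.43 to -0.09, adjusted p = 0.0857) and Srebf1 (-0.10 ± 0.04, interval -0.18 to -0.01), both lower with TCDCA. The Abcg1 difference passed with only the 6 libraries compared (-0.26, adjusted p = 0.0319, range over its alternatives 0.0224 to 0.375). Abca1 gave -0.40 ± 0.26, with an interval of -0.93 to 0.13.

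**Figure D3:**
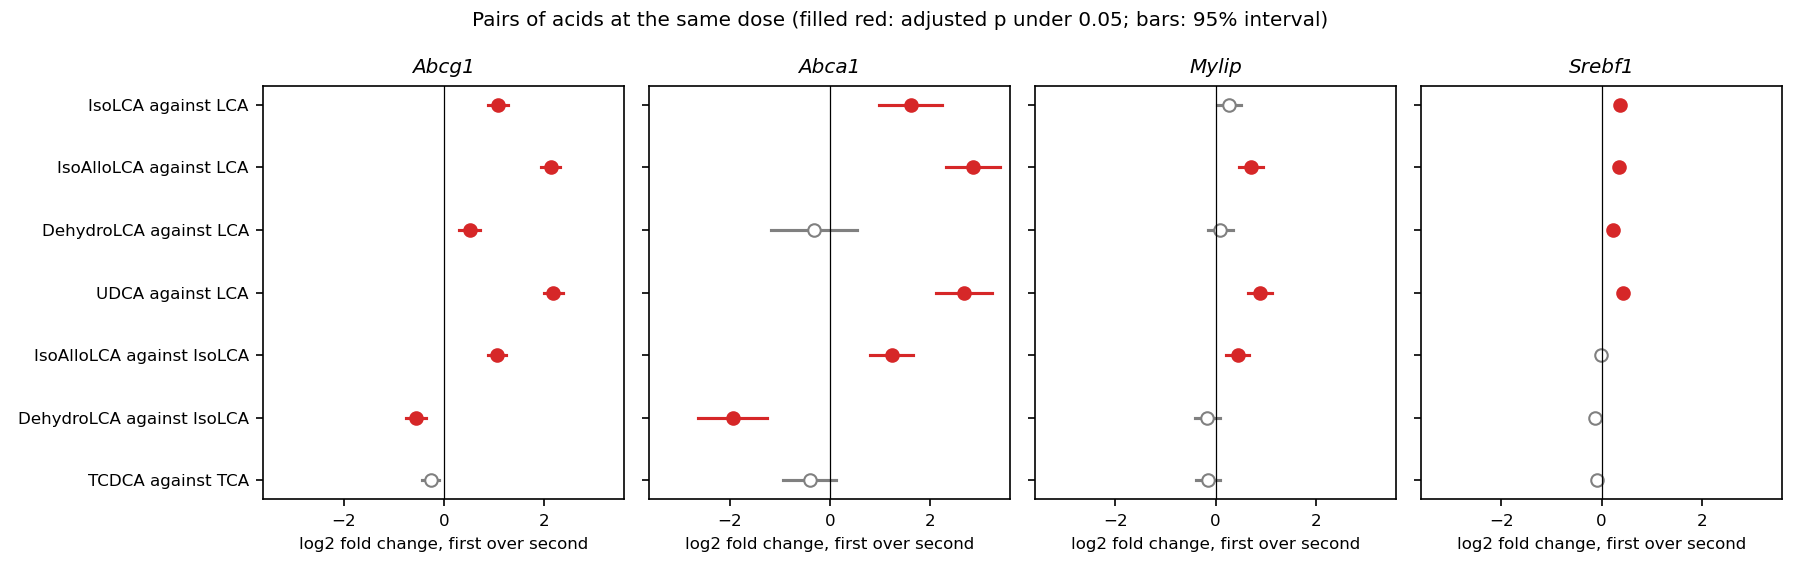
Log2 fold change (horizontal axes, first acid over second) of Abcg1, Abca1, Mylip and Srebf1 in the 7 pairs of acids at the same dose (vertical axis), with 95% intervals as bars. Filled red points passed the test. The largest values are those of Abca1 with IsoAlloLCA (2.85) and UDCA (2.68) over LCA.

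Of the genes that work beside the receptors, the partner gene Rxra moved with every unconjugated acid. Rxra encodes retinoid X receptor alpha, with which liver X receptors pair. It was at 19.4 to 22.4 CPM in control libraries, 43.2 to 47.4 CPM with IsoLCA, 36.0 to 39.2 CPM with DehydroLCA, 32.7 to 35.1 CPM with LCA, 25.9 to 33.2 CPM with IsoAlloLCA and 25.8 to 26.8 CPM with UDCA. It rose by 1.08 ± 0.07 with IsoLCA, where Abcg1 fell, and by 0.30 ± 0.07 with UDCA, where Abcg1 rose. Its paralog Rxrb moved little, rising with IsoAlloLCA (0.13) and falling with UDCA (-0.12). The part of these partner genes in the Abcg1 values was not tested.

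Of the 17 partner and cofactor genes listed, 16 were tested. Over all tested genes, the share that changed was 36.5% with LCA, 58.4% with IsoAlloLCA, 9.84% with IsoLCA, 5.83% with DehydroLCA, 19.9% with UDCA, 13.1% with TCDCA and 0.437% with TCA, and each list's counts are to be read against these. With LCA 7 of 16 rose and 3 fell, with IsoAlloLCA 6 rose and 6 fell, and with IsoLCA 2 rose and 2 fell. DehydroLCA and TCDCA each raised 2 and lowered 1, and UDCA raised 3 and lowered 2. TCA changed 0 in edgeR and 0 in DESeq2, with 4 at an unadjusted p under 0.05. The corepressor gene Ncor1 rose with LCA (0.10) and fell with IsoAlloLCA (-0.10). The list's medians lay between -0.02 and 0.10.

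Among 18 further genes known as liver X receptor targets, 9 were tested, the others having at most 9 counts in a library. With LCA 5 of 9 fell, with DehydroLCA 4 fell, with IsoLCA and UDCA 2 fell, with IsoAlloLCA 4 fell and 2 rose, and with TCDCA 3 fell and 2 rose. TCA changed 0 of 9 in edgeR and 0 in DESeq2, with 3 at an unadjusted p under 0.05. The 6 of 9 with IsoAlloLCA stand near the 58.4% of all tested genes that changed, and the 5 of 9 with LCA beside 36.5%. The list's median was -0.50 with LCA and -0.08 with IsoAlloLCA, where all tested genes had 0.01 and 0.03.

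The fatty acid desaturase gene Scd1 fell with all 5 unconjugated acids and TCDCA. Its libraries were at 219 to 249 CPM in control, 62.2 to 80.2 CPM with LCA, 119 to 129 CPM with DehydroLCA and 126 to 148 CPM with IsoLCA. Scd1 fell with LCA (-1.72 ± 0.10), DehydroLCA (-0.91 ± 0.10), IsoLCA (-0.75 ± 0.10) and TCDCA (-0.44 ± 0.10), as Abcg1 did. It also fell with IsoAlloLCA (-2.06 ± 0.11), at 47.7 to 63.2 CPM, and UDCA (-0.71 ± 0.10), at 129 to 157 CPM, the acids with which Abca1 rose. Scd2, its paralog, fell with all 5 unconjugated acids and TCDCA, from -0.92 ± 0.05 with LCA to -0.19 ± 0.05 with TCDCA. Arl4c, a small GTPase gene, fell with LCA (-0.51 ± 0.03), IsoAlloLCA (-0.34 ± 0.03) and DehydroLCA (-0.23 ± 0.03). Abca7, a relative of Abca1, rose with IsoAlloLCA only of the 7 acids (0.82 ± 0.11). In the direct pairs it was higher with IsoAlloLCA than with LCA by 0.82 ± 0.11 (edgeR adjusted p = 5.94e-07) and than with IsoLCA by 0.91 ± 0.11 (1.51e-07), and pairs of IsoAlloLCA with the other acids were not tested. Fasn, for fatty acid synthase, fell with IsoAlloLCA (-0.23) and rose with TCDCA (0.21), and Apoe (3.00 CPM in control) passed with no acid, with values of -0.15 to 0.38.

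Genes that make side-chain oxysterols were scarce, as was Cyp7b1, whose enzyme breaks them down. The makers Ch25h, Cyp46a1 and Cyp27a1 had maxima of 2, 2.5 and 10.5 counts per library and Cyp7b1 of 1, and none was tested. Sult2b1, the sulfotransferase that inactivates oxysterols, was at 2.23 to 2.39 CPM in control libraries and at 8.28 to 11.2 CPM with IsoAlloLCA, without overlap. It rose by 2.03 ± 0.12 with IsoAlloLCA (edgeR adjusted p = 6.92e-13), 0.59 ± 0.14 with LCA (0.00135) and 0.56 ± 0.14 with IsoLCA (0.00838). Of the 10 tested genes of this list, 7 fell and 2 rose with IsoAlloLCA, 6 fell and 1 rose with LCA, 4 fell with UDCA, 2 fell with DehydroLCA, 1 rose and 1 fell with IsoLCA, and 1 rose with TCDCA. Of all tested genes, 58.4% changed with IsoAlloLCA, 36.5% with LCA, 19.9% with UDCA, 5.83% with DehydroLCA, 9.84% with IsoLCA and 13.1% with TCDCA. With TCA 0 changed in edgeR and 1 in DESeq2, and 4 had an unadjusted p under 0.05. The sterol synthesis gene Lss (-1.12) was among those that fell with IsoAlloLCA.

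Of the lipoprotein receptors that the MYLIP protein targets, 2 are described. Vldlr, at 11.6 to 16.5 CPM in control, was at 3.18 to 3.47 CPM with TCDCA and 3.00 to 4.41 CPM with UDCA. It fell with TCDCA (-1.98 ± 0.23), UDCA (-1.82 ± 0.23), IsoLCA (-0.93 ± 0.20) and LCA (-0.81 ± 0.20). Lrp8 rose with TCDCA (0.31) and LCA (0.23) and fell with IsoAlloLCA (-0.66).

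Of the 24 genes of sterol uptake, sensing and storage, all tested, LCA lowered 12 and raised 4, IsoLCA lowered 9 and raised 1, UDCA lowered 8 and raised 1, and DehydroLCA lowered 7. IsoAlloLCA raised 10 and lowered 9, and TCDCA raised 2 and lowered 2. TCA changed 0 in edgeR and 0 in DESeq2, with 4 at an unadjusted p under 0.05. The share of all tested genes that changed was 36.5% with LCA, 9.84% with IsoLCA, 19.9% with UDCA, 5.83% with DehydroLCA, 58.4% with IsoAlloLCA and 13.1% with TCDCA. The list's medians lay between -0.12 and 0.02. Srebf2, for the factor that drives cholesterol synthesis, fell with LCA (-0.37), IsoAlloLCA (-0.28), UDCA (-0.20), DehydroLCA (-0.14) and IsoLCA (-0.12). Stard4, a sterol carrier, also fell with LCA (-0.50), IsoAlloLCA (-0.44), UDCA (-0.38), DehydroLCA (-0.18) and IsoLCA (-0.15).

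Of 13 other transporters of the A and G subfamilies, 6 were tested, and LCA raised 2 and lowered 2. The counts were 2 raised and 1 lowered for IsoAlloLCA, 2 raised for IsoLCA, and 1 raised each for DehydroLCA, UDCA and TCDCA. The 4 of 6 with LCA stand beside 36.5% of all tested genes, the 3 of 6 with IsoAlloLCA beside 58.4% and the 2 of 6 with IsoLCA beside 9.84%. TCA changed 0 in edgeR and 0 in DESeq2, with 1 at an unadjusted p under 0.05. Abca2 rose with LCA (0.24), TCDCA (0.26) and UDCA (0.30). Abca3 fell with LCA (-0.19) and Abcg2 rose with IsoLCA (0.27).

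Among 13 acyltransferase and phospholipid desaturation genes related to Lpcat3, 12 were tested. LCA lowered 6 and raised 1, IsoAlloLCA raised 6 and lowered 5, UDCA raised 2 and lowered 3, IsoLCA and TCDCA each raised 1 and lowered 2, and DehydroLCA raised 1 and lowered 1. Of all tested genes, 36.5% changed with LCA, 58.4% with IsoAlloLCA, 19.9% with UDCA, 9.84% with IsoLCA, 13.1% with TCDCA and 5.83% with DehydroLCA. TCA changed 0 in edgeR and 0 in DESeq2, with 5 at an unadjusted p under 0.05. Lpcat1 rose (0.40 ± 0.05) and Lpcat4 fell (-0.34 ± 0.04) with IsoAlloLCA, and neither passed with another acid. In the direct pairs Lpcat1 was higher with IsoAlloLCA than with LCA (0.47 ± 0.05) and IsoLCA (0.51 ± 0.05), and Lpcat4 was lower (-0.27 ± 0.04 and -0.28 ± 0.04). UDCA also differed from LCA in both genes, being higher by 0.19 ± 0.05 in Lpcat1 and 0.16 ± 0.04 in Lpcat4. Acsl4, which activates arachidonic acid, fell with IsoAlloLCA (-0.45), LCA (-0.24) and IsoLCA (-0.18).

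**Figure D4:**
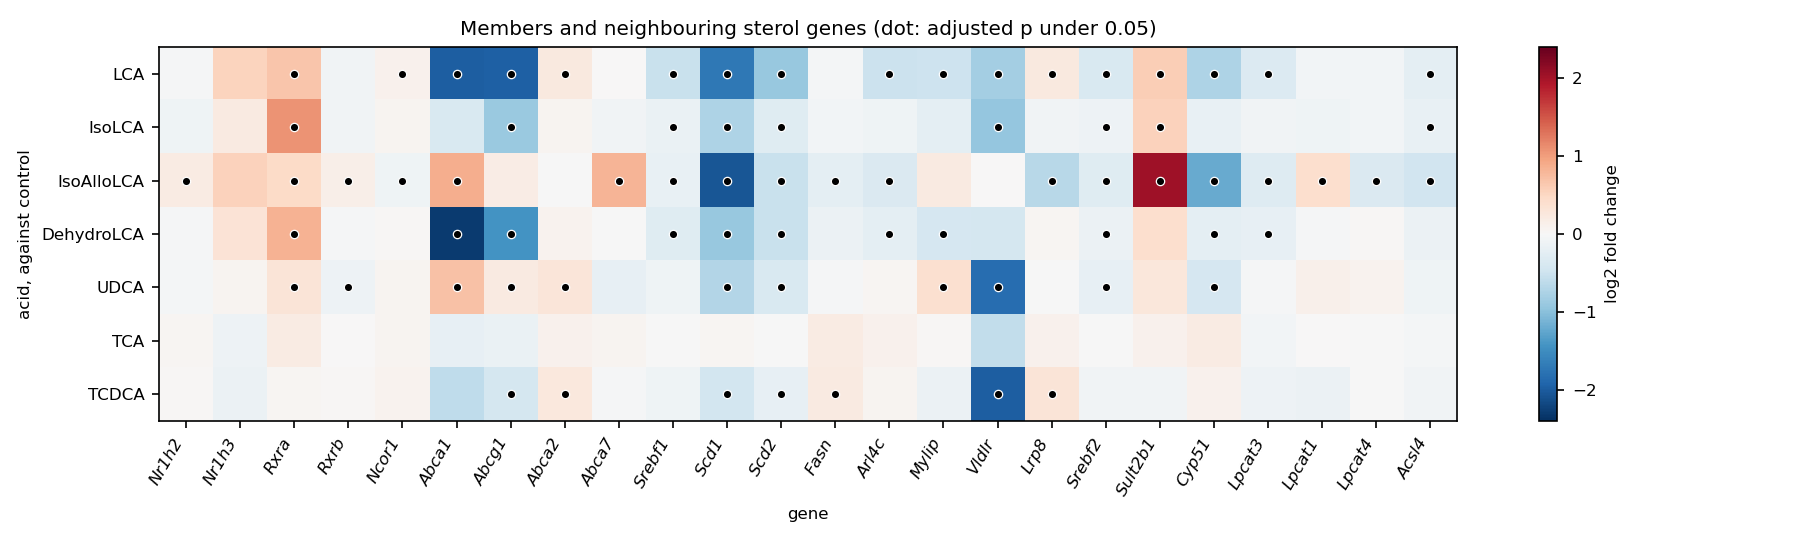
Log2 fold change (colour scale) with each acid against control (rows) of the 7 genes and of genes that work beside them (columns). Dots mark values that passed the test. Abcg1 is at -1.96 with LCA and 0.22 with UDCA, while Rxra is positive in all rows and Scd1 is at -2.06 with IsoAlloLCA.

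Across the 24 libraries, levels of Abca1, Abcg1 and Mylip ran closely together on the log2 scale, with Pearson r of 0.87 between Abca1 and Abcg1, 0.88 between Abcg1 and Mylip and 0.83 between Abca1 and Mylip. Srebf1 was nearer to Abcg1 (0.84) than to Lpcat3 (0.73). With Abca1, Abcg1 and Mylip, Nr1h2 had r of 0.39 to 0.43 and Nr1h3 -0.35 to -0.23. These values describe libraries that share groups and were given no test.

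The genes most like each member were sought among 8546 genes of at least 10 CPM, by Pearson r of log2 CPM over the 24 libraries. For Abcg1 they were Ms4a4b (0.92), Lsp1 (0.88) and AA467197 (0.88). Srebf1 was matched by Scd2 (0.92), by Mir5114 (0.90), which lies within Scd2 in the table and can share its reads, and by Becn1 (0.89). Those nearest to Abca1 were Rtn3 (0.78), Pik3ca (0.78) and Ptp4a3 (0.77), and those nearest to Mylip were Fry (0.86), AW112010 (0.85) and Lrrc8a (0.84). Lpcat3 was most like Srpr, Aldh9a1 (0.93 each) and Pigt (0.92), Nr1h2 like Cep97 (0.93), Rnf167 and Lyst (0.90 each), and Nr1h3 like Mvp (0.80), Fam129a and Rhbdd1 (0.75 each).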

How the data were processed

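RNA-seq libraries of 24 samples (8 groups of 3) were assigned to groups and replicates by their titles. The authors deposited 1 table of 24537 genes, made with HOMER by counting over exons on mm10 with 1 transcript per gene and no normalization, per the file headers. The values the authors deposited are expected counts spaced 0.5 apart, of which 29.4% are not whole. STAR and DESeq2 are also named, per the submitters' processing notes, and versions are not given in the sources used here. Transcript lengths are those of the deposited table.

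Values ending in 0.5 were rounded upward. Counts were fitted in R 4.3.3 with edgeR 4.0.16 (glmQLFit and glmQLFTest) over all 24 libraries, 1 coefficient per group, with TMM scaling, filterByExpr and Benjamini-Hochberg adjustment over 13044 genes. A gene was called at adjusted p under 0.05. The SE is the absolute log2 fold change over the square root of F, from a spread shared by all groups, and intervals are 95%. Alternatives used DESeq2 1.42.0, other filters, scaling, rounding and fits, and leaving out each library. On simulated counts of 13044 genes (LCA against Control), 79% of 100 genes changed 1.5-fold and 38% of 100 changed 1.2-fold were recovered. No other gene was changed there, while 4765 were called for LCA against Control in the data, so recovery in the data can differ. These rates pool genes of all levels and do not describe genes as scarce as Abca1 and Nr1h3. Library sizes were 25998051 to 41024340.5 counts. The 7 genes and all lists were chosen with earlier results of these data known. Named genes were the members, the 3 tested genes of highest mean CPM in each list, a fixed set of pathway genes, and the 3 genes most like each member. Some named genes are not reported here.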

Additional observations from a re-analysis of the deposited data

How the results depend on the processing

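Of 98 values (7 genes in 14 comparisons), 44 were called. In 1350 refits, 0 called values changed sign. Of the calls, 6 were lost in at least 1 refit and 8 other values gained one. Values not called changed sign in 23 refits. Limits are depth for Abca1 and Nr1h3 (2 to 59.5 and 10.5 to 32.5 counts per library) and groups of 3.

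With p-values adjusted over all 14 comparisons together, genes called were 1343 for DehydroLCA and 438 for TCA against Control, 764 for DehydroLCA against IsoLCA and 1117 for TCDCA against TCA, and members called were 2 for TCDCA against Control and 1 (Abcg1) for TCDCA against TCA. TCA against Control called 123 genes with no low-count filter, 14 with only the 6 libraries compared and 103 in DESeq2. Members called for TCDCA against TCA were 1 with no filter and 1 with only the 6 libraries. For TCDCA against Control they were 2 with only the 6 libraries, 2 in DESeq2 and 2 with the IsoAlloLCA libraries left out, a setting chosen after seeing the data. Windows with a DR4 match numbered 0 with up to 2 mismatches and 8 with up to 4. Of all promoters of the same length, 3.02% and 76.9% held such a match. The number of windows with a match can only stay or grow as more mismatches are allowed. The cause of the other changes was not tested.

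Leaving out each library in turn, members called ranged from 1 to 2 for IsoLCA, UDCA and TCDCA against Control. Genes called ranged from 815 to 1198 for IsoLCA, 400 to 625 for DehydroLCA, 1692 to 2219 for UDCA, 6 to 114 for TCA and 898 to 1628 for TCDCA against Control, with the lowest without Control replicate 2 except for TCA (without TCA replicate 3). They ranged from 2521 to 3897 for IsoLCA and 1189 to 2228 for DehydroLCA against LCA (lowest without LCA replicate 2), 98 to 182 for DehydroLCA against IsoLCA (lowest without DehydroLCA replicate 3) and 185 to 737 for TCDCA against TCA (lowest without TCA replicate 1).

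Replicate numbers were not taken to pair the samples. Correlations of deviations between same-numbered libraries exceeded 0.1 in 6 of 42 pairs (-0.33 to 0.40). These 6 were replicates 1 and 2 of the pairs among LCA, IsoLCA and IsoAlloLCA (0.15 to 0.40). Replicate 3 of the same pairs gave 0.06 to 0.07. Shares of replicates 1, 2 and 3 in exons were 82.3%, 79.3% and 80.6% in LCA and 84.7%, 81.9% and 83.3% in IsoLCA. In IsoAlloLCA they were 81.2%, 75.6% and 78.1%, and in Control 81.1%, 82.9% and 83.8%. Control replicate 1 gave -0.24 with LCA replicate 1, -0.31 with IsoLCA replicate 1 and -0.33 with IsoAlloLCA replicate 1. What these libraries share, and the part of the exon share in it, was not tested. With the replicate block, LCA called 5 members and 4974 genes against Control, UDCA 3 and 2813, and no count of members changed. Without it the genes were 4765 and 2599, and all 14 comparisons called more genes with the block.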
